A study of Physcomitrium patens with 6 samples.

Results

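Of 32926 gene IDs counted in protonema of the moss Physcomitrium patens, 149 kept nearly their starting transcript level through the first 30 minutes of abscisic acid (ABA) and fell to at most 0.4 of their 30 minute level in the next 30 minutes. The 149 genes were chosen from the measured values themselves. Their level is given in CPM, read counts per 1000000 gene counts after TMM scaling, which adjusts each library by the typical ratio of its genes. A chosen gene had a mean of 5 to below 100 CPM at 0 minutes, a mean at 30 minutes no more than 20% below or 25% above that at 0 minutes, a ratio between 60 and 30 minutes of at most 0.4, and both 60 minute libraries below the other 4. Since all 6 libraries entered this choice, the levels, ratios and calls of the 149 genes are a description and carry no test.

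Protonema is the filamentous juvenile tissue of the moss. Per the labels, 10-day-old tissue was sonicated and grown for 3 days in shaken liquid medium before ABA was added, and there were 2 biological replicates each at 0, 30 and 60 minutes. The ABA concentration is 10 µM in the series design and 10 mM in the treatment protocol, a difference the labels do not resolve. Control cultures received an equal volume of the carrier methanol, no genotype or transgene is named in the labels, and the time between this addition and the collection of the 0 minute cultures was not found in the labels. ABA and time after an addition therefore cannot be told apart in any difference from 0 minutes. The same holds between 30 and 60 minutes, since no library comes from a culture without ABA at those times.

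ABA is the plant hormone of drought and osmotic stress. In land plants it is bound by receptors of the PYR/PYL family, which then inhibit protein phosphatases of type 2C and so release SnRK2 protein kinases to act on transcription factors and channels. In moss protonema, ABA is known for raising tolerance of freezing and drying and for arresting filament growth. The level of an mRNA reflects both its synthesis and its decay, and a library of a bulk culture averages all of its cells, so fewer cells of a kind and less RNA per cell cannot be told apart.

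The count tables do not pair IDs with names, and none of the 149 IDs was found among the identifiers of the 27567 genes listed by RefSeq for assembly ASM5946719v1. The genes are therefore given by ID, with no function, sequence or coordinate, and the tissue label could not be checked against markers. Gene counts summed to 12450250 to 17822775 per library, and all 149 genes were among the 18949 that passed the filter on low counts. None had a count of 0 in any library. Reads over both libraries of a time ranged from 199 to 3463 per gene at 0 minutes and from 21 to 788 at 60 minutes, where the median was 102 reads.

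The late-falling genes were transcripts of modest level that lost most of it within the second 30 minutes. Their median level was 12.7 and 11.7 CPM in the 0 minute libraries, 12.1 and 12.4 CPM in the 30 minute libraries, and 3.76 and 3.52 CPM in the 60 minute libraries. The libraries at 0 and 30 minutes stood close to each other and both 60 minute libraries stood apart below them. Their summed reads made up 0.338% ± 0.0213 of all gene counts in the 0 minute libraries. This share was 0.289% ± 0.00205 after 30 minutes and 0.0743% ± 0.00767 after 60 minutes (SD, n = 2 throughout). In the fitted model their median log2 fold change was -0.08 from 0 to 30 minutes, -1.60 from 30 to 60 minutes and -1.69 from 0 to 60 minutes, against medians over all tested genes of -0.02, 0.01 and -0.04.

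**Figure D1:**
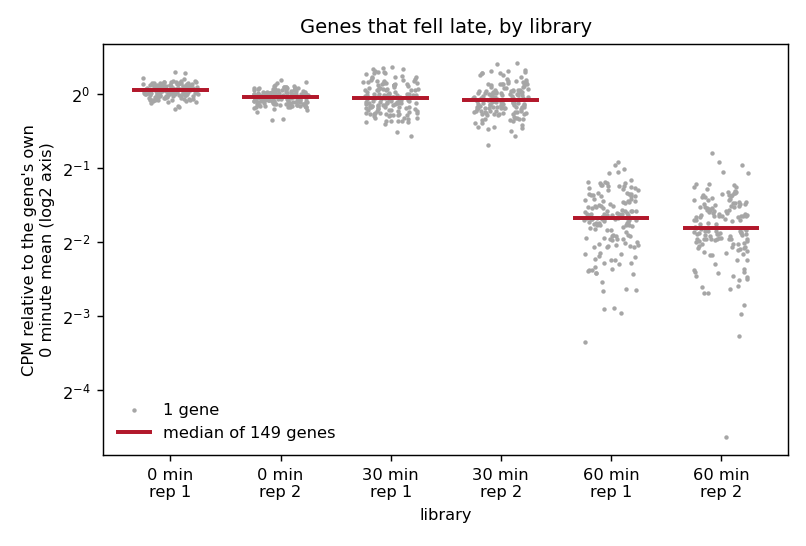
CPM of each of the 149 late-falling genes relative to its own 0 minute mean (log2 axis), by library. Each point is 1 gene, points are spread sideways for legibility, and the red bar is the median over genes. The 4 libraries at 0 and 30 minutes lie around the starting level and both 60 minute libraries lie below it.

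The ratio between 60 and 30 minutes had a median of 0.329, with quartiles of 0.286 and 0.371 and a range of 0.0892 to 0.398. The fall was 2.51-fold to 11.2-fold, with a median of 3.04-fold. Most genes lay near the limit, with 100 at a ratio above 0.3, 36 above 0.2 and up to 0.3, and 13 at 0.2 or below. Expressed as the time in which a level falling exponentially through the whole 30 minutes would halve, the falls ran from 8.60 to 22.6 minutes, with a median of 18.7 minutes. That time follows by arithmetic from the ratio and from the TMM scale, and it is no measured decay rate.

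The choice itself demanded a distance between the 60 minute libraries and the rest, and its width is given as a description only. The same distance was not computed for other genes. For 136 of 149 genes the higher 60 minute library was at most 0.5 of the lowest of the other 4 libraries. The lowest of the 4 earlier libraries exceeded the higher 60 minute library by 1.61-fold at the least, 2.54-fold at the median and 7.10-fold at the most. All 149 were called lower at 60 than at 30 minutes and lower at 60 than at 0 minutes at an adjusted p below 0.05 by the quasi-likelihood test of edgeR, with Benjamini-Hochberg adjustment over all tested genes. Of all tested genes, 18.5% were called lower in the first of these comparisons and 29.5% in the second, and both 60 minute libraries lay below the other 4 for 26.9%. The choice used these contrasts, so nothing is read from the members' counts. The members were 7.56% of the 1970 genes called lower between 30 and 60 minutes with no call between 0 and 30 minutes.

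Pp3c12_14550 showed the deepest fall. It stood at 9.45 and 8.23 CPM at 0 minutes, 8.69 and 8.06 CPM at 30 minutes, and 1.14 and 0.359 CPM at 60 minutes. The 4 earlier libraries lay close together, and the 60 minute libraries were 3.16-fold apart, the widest gap at that time among the 149 genes. Replicate 1 at 60 minutes was at 0.136 of the 30 minute mean and replicate 2 at 0.0429. Those libraries held 16 and 5 reads, so the summed counts were 11.2-fold lower than at 30 minutes with an exact 95% counting interval of 7.20 to 18.5. Between 30 and 60 minutes the fitted log2 fold change was -3.47 (SE 0.32), and leaving out replicate 2 at 60 minutes gave -2.89 and leaving out replicate 1 gave -4.52.

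Pp3c1_37090 read 10.1 and 7.90 CPM at 0 minutes, 10.4 and 9.29 CPM at 30 minutes, and 1.77 and 0.934 CPM at 60 minutes. Its 60 minute mean was 7.27-fold below the 30 minute mean, and the groups at 0 and 30 minutes overlapped. Pp3c6_23030 had 11.9 and 14.1 CPM at 0 minutes, 14.1 and 13.1 CPM at 30 minutes, and 2.06 and 2.01 CPM at 60 minutes. Here the 60 minute libraries agreed closely and stood at 0.1499 of the 30 minute mean. Pp3c7_22280, the most abundant of the 4 deepest falls, had 39.0 and 38.6 CPM at 0 minutes, 31.9 and 31.9 CPM at 30 minutes, and 5.18 and 5.39 CPM at 60 minutes. Both 30 minute libraries of Pp3c7_22280 already lay below both 0 minute libraries, at a ratio of 0.823, before the ratio of 0.165 in the second 30 minutes.

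The genes with the highest starting levels had ratios between 60 and 30 minutes of 0.317 to 0.389, against a median of 0.329 over the 149 genes. The genes above were picked for the lowest ratios, so nothing about depth and level is read from a comparison with them. Pp3c12_18380 stood at 91.2 and 84.1 CPM at 0 minutes, 77.5 and 79.5 CPM at 30 minutes, and 25.2 and 24.6 CPM at 60 minutes, a ratio of 0.317 between the last 2 times. Pp3c18_13870 stood at 87.9 and 84.3 CPM, then 72.8 and 79.3 CPM, then 28.0 and 22.7 CPM. In both genes the 30 minute libraries were below the 0 minute libraries, by less than the later fall. Pp3c2_9900 read 87.4 and 78.4 CPM at 0 minutes, 67.7 and 71.9 CPM at 30 minutes, and 25.6 and 28.8 CPM at 60 minutes. Pp3c12_18960 read 72.2 and 77.0 CPM, then 78.7 and 76.6 CPM, then 29.6 and 26.7 CPM. For Pp3c12_18960 the 0 and 30 minute libraries overlapped and only the 60 minute libraries lay apart.

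In some genes the means at 0 and 30 minutes were nearly equal, though libraries of the same time could differ by more than the means did. Pp3c23_10940 had 16.9 and 13.9 CPM at 0 minutes, 15.2 and 15.5 CPM at 30 minutes, and 4.47 and 4.96 CPM at 60 minutes. Pp3c5_1000 had 6.97 and 7.09 CPM, then 7.11 and 6.91 CPM, then 2.06 and 1.80 CPM. The ratio between 30 and 0 minutes was 0.997 for Pp3c5_1000 and nearer still to 1 for Pp3c23_10940. The ratio between 60 and 30 minutes was 0.275 for Pp3c5_1000 and 0.307 for Pp3c23_10940.

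At 30 minutes the late-falling genes leaned slightly towards a decrease within the limits of the choice. The ratio between 30 and 0 minutes had a median of 0.948 and quartiles of 0.860 and 1.04. It was below 1 for 94 of 149 genes (63.1%), against 49.0% of the 6712 other genes in the same level range whose ratio lay within the same limits, called flat genes here. Both 30 minute libraries lay below both 0 minute libraries for 61 of the 149 genes, where 37.8% of all tested genes did so. Both lay above for 18 of the 149, where 36.4% of all tested genes did so, and the libraries overlapped for 70. The limits on the 30 minute level bound these counts as well. The same shares over flat genes were not computed, and nothing is read from the counts. None of the 149 was called between 0 and 30 minutes, and 10 had an unadjusted p below 0.05. Of all tested genes 36.4% were called there, but the limits on the 30 minute level leave few calls possible, and of the other 6712 flat genes 0.551% were called (10 lower and 27 higher). DESeq2 also called 0 of the 149, with 0 at an unadjusted p below 0.05, and limma-voom called 0 of the 149, with 10. Of all tested genes, DESeq2 called 27.9% and limma-voom 36.7%.

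How level the genes were at 30 minutes depended on the scaling and on which libraries were fitted. Upper-quartile factors moved the median log2 ratio of all genes between 30 and 0 minutes from -0.02 to -0.26. The median ratio of the 149 genes was then 0.798 and 49 were called lower at 30 minutes. That fit called 48.7% of all tested genes, in either direction. With total counts alone the shift of all genes was to -0.16, the median ratio was 0.858 and 12 were called lower. Here 37.6% of all tested genes were called. In a fit to only the 4 libraries at 0 and 30 minutes, 14 were called, 11 of them lower, where 48.2% of all tested genes were called. Leaving out either replicate at 60 minutes gave a median log2 fold change of -0.068 for the 149 genes. Their choice bounded the 30 minute level, so nothing is read from their counts against the shares of all genes. The fall between 30 and 60 minutes was called for all 149 genes with both of these scalings, without either 60 minute replicate, and in a fit to only the 4 libraries at 30 and 60 minutes.

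**Figure D2:**
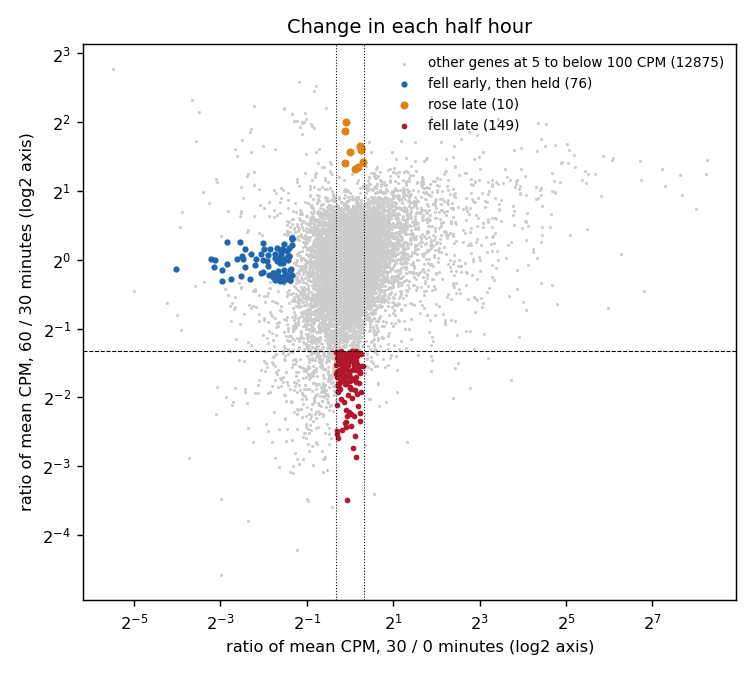
Ratio of mean CPM between 30 and 0 minutes (x, log2 axis) against the ratio between 60 and 30 minutes (y, log2 axis) for genes at 5 to below 100 CPM at 0 minutes; each point is 1 gene. Dotted lines mark 20% below and 25% above the 0 minute level and the dashed line marks 0.4; the 149 late-falling genes fill the region between the dotted lines and below the dashed one, opposite 10 genes that rose late.

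The libraries that took no part in the choice could be read by choosing genes on 5 libraries and then looking at the sixth on the same scale. Without replicate 1 at 60 minutes, 169 genes were chosen, and the left-out library lay below all 4 earlier libraries for 168 of them, against 37.1% of all 6861 flat genes in that choice. Its median ratio to the 30 minute mean was 0.358, where the choice had been made at a median of 0.315, and 107 of the 169 genes were at or below 0.4. Without replicate 2 at 60 minutes, 151 genes were chosen, and the left-out library lay below the 4 earlier ones for all 151, against 40.2% of the flat genes. Its median ratio was 0.334, against 0.331 in the choice, and 107 of the 151 were at or below 0.4. The direction of the fall thus appeared in the unused library for all but 1 gene, and its size met the limit for 63.3% and 70.9% of the genes.

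The earlier libraries were read in the same way. When 1 library at 0 or 30 minutes was left out, 144 to 159 genes were chosen, and the ratio formed with the left-out library met the same limits for 69.8% to 81.3% of them. Its median was between 0.893 and 0.983. All limits were met by 113 of 154 and 113 of 144 genes when a 0 minute library was left out. With a 30 minute library left out, 96 of 146 and 96 of 159 genes met them. The 60 minute libraries lay below the left-out library for every gene in each of these 4 choices. Each choice had already set them below the remaining earlier libraries, so this outcome was nearly given. The same share over flat genes was not computed, and nothing is read from it.

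The 60 minute libraries agreed on the size of the fall to a limited degree. For 84 of 149 genes the 60 minute libraries were within 1.2-fold of each other, for 23 they were over 1.5-fold apart, and for 3 over 2-fold. Replicate 2 was the lower for 89 genes and replicate 1 for 60. The ratio of replicate 2 to replicate 1 had quartiles of 0.816 and 1.108 at 60 minutes, against 0.873 and 1.15 among the other flat genes, whose median level at 60 minutes was 18.6 CPM. At 30 minutes the quartiles for the 149 genes were 0.906 and 1.07. Across the 149 genes, the ratios of the 2 replicates to the shared 30 minute mean correlated with a Spearman rho of 0.343 and a Pearson r of 0.531 on the log2 scale. These points share the 30 minute libraries, and the choice cut them at a common limit.

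**Figure D3:**
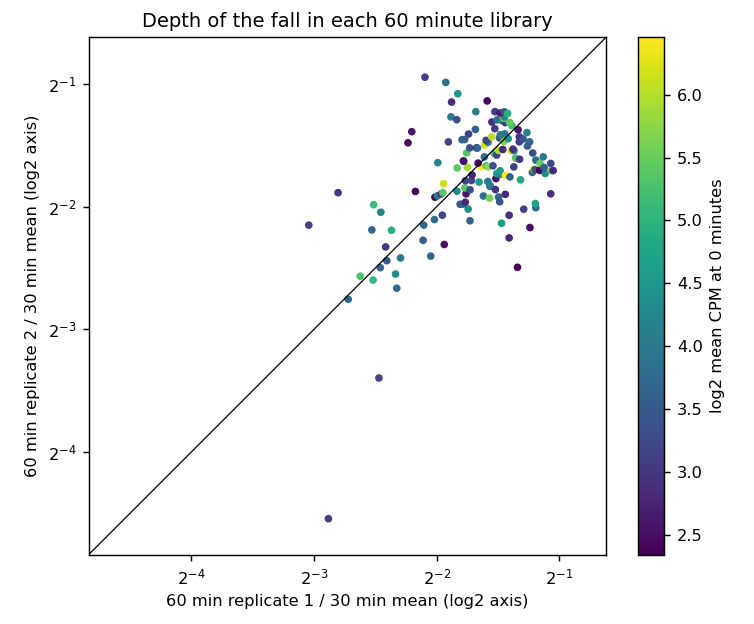
Level of each of the 149 genes in 60 minute replicate 1 (x) and replicate 2 (y), each as a ratio to the gene's 30 minute mean (log2 axes), coloured by log2 mean CPM at 0 minutes; the line marks equal values. Pp3c12_14550 is the lowest point, at 0.136 and 0.0429.

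Pp3c2_16690, after Pp3c12_14550 the gene with the widest gap at 60 minutes, had 5.44 and 4.98 CPM at 0 minutes, 4.65 and 5.07 CPM at 30 minutes, and 1.92 and 0.862 CPM at 60 minutes. Those last values rest on 27 and 12 reads, and its log2 fold change from 30 to 60 minutes moved from -1.79 (SE 0.30) to -1.34 without replicate 2 and to -2.47 without replicate 1 at 60 minutes. Pp3c1_36100 lay at the other end, with 49.6 and 49.9 CPM at 0 minutes, 43.8 and 39.7 CPM at 30 minutes, and 15.3 and 15.1 CPM at 60 minutes. Pp3c24_12680 likewise had 16.5 and 13.4 CPM, then 14.4 and 14.2 CPM, then 4.68 and 4.74 CPM. In these last genes the replicates at 60 minutes differed by far less than the times did.

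Falls in the second 30 minutes were far more frequent than rises of the same size among genes that had been flat. Of 6861 flat genes, 149 (2.17%) reached a ratio of 0.4 or less, and the demand that both 60 minute libraries lie below the rest removed none of these. With the limits turned round, 10 flat genes reached 2.5 or more with both 60 minute libraries above the other 4. At a wider limit, 289 flat genes were at 0.5 or below and 21 at 2 or above. The excess of falls was present under each of the 4 scalings compared, with 141 against 10 genes for RLE factors, 119 against 10 for upper-quartile factors and 226 against 7 for total counts alone. Total counts alone moved the median log2 ratio of all genes between 60 and 30 minutes to -0.31, and upper-quartile factors to -0.09, from 0.01 with TMM. The members themselves changed with the scaling, since total counts alone left 98 of the 149 within the limits and upper-quartile factors left 73.

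**Figure D4:**
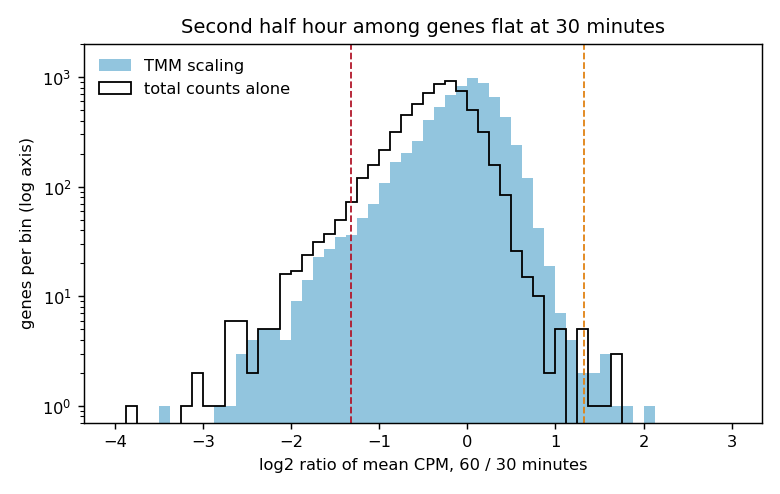
Number of genes (log axis) by log2 ratio of mean CPM between 60 and 30 minutes among genes at 5 to below 100 CPM that were flat at 30 minutes, with TMM scaling (filled) and with total counts alone (outline). Dashed lines mark ratios of 0.4 and 2.5; 149 genes with TMM and 226 with total counts alone met all limits on the left, and 10 and 7 on the right.

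Genes that fell early offer a comparison of timing. By mirrored limits, 76 genes of the same level range fell to at most 0.4 within the first 30 minutes and then stayed within 20% below to 25% above the 30 minute level. The median of their mean levels was 15.4 CPM before treatment, 4.39 CPM after 30 minutes and 4.44 CPM after 60 minutes. For the late-falling genes these medians were 12.3, 12.4 and 3.64 CPM. The median ratio between 60 and 0 minutes was 0.283 for the genes that fell early and 0.310 for those that fell late, with ranges of 0.0557 to 0.489 and 0.0846 to 0.458. The numbers of both groups depended on scaling, and with upper-quartile factors the genes that fell early (120) and late (119) were about equal.

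Late falls took a larger share of flat genes at low starting levels. They made up 54 of 1407 flat genes (3.84%) at 5 to below 10 CPM, 55 of 2217 (2.48%) at 10 to below 20 CPM, 29 of 2340 (1.24%) at 20 to below 50 CPM and 11 of 897 (1.23%) at 50 to below 100 CPM. Outside the range of the choice, 83 of 1181 flat genes (7.03%) fell late at 1 to below 5 CPM and 1 of 905 (0.110%) at 100 CPM or more. The median ratio of the genes that fell was between 0.322 and 0.341 in the 4 classes of the choice. It was 0.290 at 1 to below 5 CPM and 0.384 for the 1 gene at 100 CPM or more. The limit of 0.4 bounds all of these medians from above. Across the 149 genes the ratio between 60 and 30 minutes had a Spearman rho of 0.0471 with the starting level. Its rho with the ratio between 30 and 0 minutes was -0.0282. The choice bounded each of these quantities, and both ratios share the 30 minute mean, so nothing is read from these values. Counting error is larger at low levels, and its part in the gradient was not tested. The lowest count of any of the 149 genes was 47 reads in a 30 minute library and 5 in a 60 minute library.

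**Figure D5:**
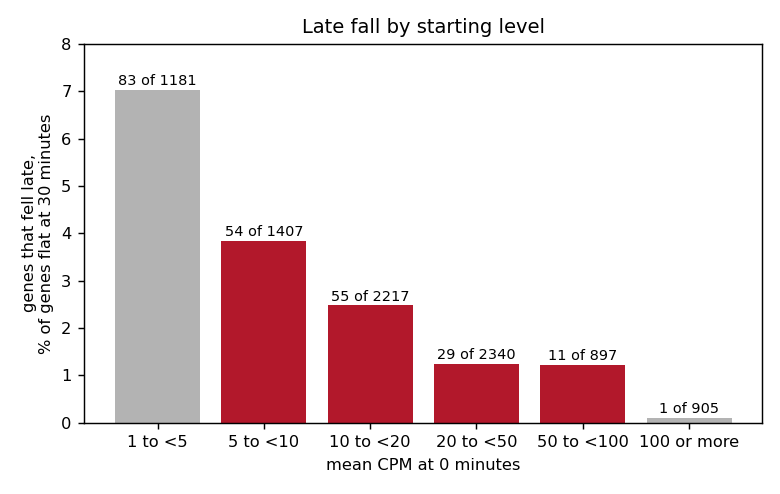
Genes that fell late as a percentage of the genes flat at 30 minutes, by mean CPM at 0 minutes; the numbers above the bars give genes that fell late of flat genes. Red bars are the 4 level classes of the 149 genes, from 3.84% down to 1.23%, and grey bars lie outside the chosen range.

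The limits cut through a continuum. Pp3c6_17900 and Pp3c14_17140 were just inside the limit on the fall, with ratios of 0.3981 and 0.3980, and Pp3c7_22430 and Pp3c2_12400 just outside it, with 0.4022 and 0.4029. At the upper level limit there was a gap between Pp3c12_18380, at 87.6 CPM, and the next gene of the same course, Pp3c2_12080. Pp3c2_12080 had 147 and 140 CPM at 0 minutes, 136 and 115 CPM at 30 minutes, and 51.7 and 44.4 CPM at 60 minutes. At the lower level limit Pp3c7_15590 had a mean of 5.09 CPM at 0 minutes and Pp3c12_13280, outside, 4.64 CPM. The ratio between 30 and 0 minutes was 0.8002 for Pp3c22_21400, inside, and 0.7990 for Pp3c17_21350, outside; at the upper limit it was 1.237 for Pp3c13_4760 and 1.255 for Pp3c14_8750, which lay outside.

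The IDs themselves were not used in the choice. The 149 genes carried 26 of the 27 prefixes from Pp3c1 to Pp3c27 found among tested genes, and none of the 29 flat genes with a Pp3s prefix was among them. The prefix Pp3c2 was the most frequent with 13 genes of 451 flat genes (2.88%), and Pp3c6 held 12 of 277 (4.33%). At the other end, Pp3c21 held 1 of 219 (0.457%) and Pp3c20 held 0 of 197. The share over all flat genes was 2.17%. No test of these shares was made.

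Among the 149 genes, 4 pairs (8 genes) had IDs that followed each other directly in the numbering. Pp3c2_520 had 41.2 and 41.1 CPM at 0 minutes, 31.5 and 36.5 CPM at 30 minutes, and 8.80 and 9.19 CPM at 60 minutes. Its neighbour Pp3c2_530 had 42.6 and 41.8 CPM, then 32.5 and 36.8 CPM, then 10.2 and 9.63 CPM, at most 1.15-fold from it in any library. Pp3c25_4050 had 68.9 and 74.3 CPM, then 61.3 and 59.4 CPM, then 15.7 and 17.2 CPM. Pp3c25_4070 had 55.4 and 62.8 CPM, then 51.8 and 49.9 CPM, then 15.1 and 15.9 CPM. These last neighbours were at most 1.24-fold apart in any library. The choice required a course within the same limits of all 149 genes, so nothing is read from the shared course of neighbours.

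Pp3c13_4780 had 18.5 and 16.4 CPM at 0 minutes, 17.3 and 15.9 CPM at 30 minutes, and 5.61 and 4.67 CPM at 60 minutes. Its neighbour Pp3c13_4760 had 17.4 and 13.9 CPM, then 19.2 and 19.6 CPM, then 5.25 and 8.05 CPM, so that it was higher at 30 minutes than at 0 minutes where Pp3c13_4780 overlapped. Pp3c16_12980 had 8.36 and 6.60 CPM, then 8.36 and 7.14 CPM, then 3.69 and 2.08 CPM, below Pp3c16_12990 in every library. Pp3c16_12990 had 17.0 and 14.2 CPM, then 16.6 and 16.4 CPM, then 7.52 and 5.46 CPM. Whether such neighbours are similar copies or overlapping genes that share reads was not tested, and their values are uncertain to that extent.

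Other genes next to the 149 in the numbering were called lower no more often than tested genes in general. There were 289 such direct neighbours, of which 155 were tested. Of these, 22 (14.2%) were called lower at 60 than at 30 minutes, against 18.5% of all tested genes, and 23 (14.8%) were called higher, against 17.4%. Their median log2 fold change from 30 to 60 minutes was 0.01, as over all tested genes, and the 56 neighbours that were flat and in the same level range had a median ratio of 1.03.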

How the data were processed

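Raw counts per gene were deposited by the authors, 1 table for each of 6 libraries. They are whole numbers, and library totals differ. Tools listed without a version in the submitters' processing notes are TopHat, cutadapt, DESeq2 and HTSeq; the kit was a stranded mRNA kit, per the labels. Build, annotation and strand setting of the counts were not found in the labels. The 5 summary rows were left out; reads in no gene were 1.66% to 2.14% of each library.

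CPM were computed as counts per 1000000 gene counts, divided by TMM factors from genes passing filterByExpr (minimum count 10, total 15). Calls came from edgeR 4.0.16 in R 4.3.3 (quasi-likelihood F test, 3 groups, all 6 libraries, Benjamini-Hochberg adjusted p below 0.05); the SE is the log2 fold change divided by the square root of F. DESeq2 1.42.0 and limma 3.58.1 were alternatives. The fit was also run on simulated counts with equal spread for all genes and few genes changed. That run cannot speak to the scaling when many genes change. With 2 libraries a group, p-values measure only the spread between these cultures.

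The members and the rule for named genes (extremes of fall, level, flatness and replicate gap, genes at each limit, and ID neighbours) were chosen with earlier results of these data known. Intervals cover counting error only. Replicate numbers were not treated as pairs.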

Additional observations from a re-analysis of the deposited data

Results flagged for a closer look

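The 149 genes differed between 30 and 60 minutes in their change from 0 minutes, since all 149 were called in the comparison of those times. They were chosen for this, so the count is no independent evidence.

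Reads in no annotated gene, which enter no value above, took a larger share of each treated library than of either 0 minute library (1.67% and 1.66%). The share was 1.99% and 2.04% at 30 minutes and 2.14% and 1.73% at 60 minutes.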

How the results depend on the processing

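The number of genes that met the limits was 226 with total counts alone, 78 and 289 with the limit on the fall at 0.33 and 0.5, and 73 and 256 with the 30 minute level held to 10% below to 11% above and to 33% below to 50% above the 0 minute level. Leaving out 1 library gave 144 to 169. All 149 genes were called lower at 60 than at 30 and than at 0 minutes in each alternative fit that kept 2 libraries at each time compared. These genes were chosen for the fall in the same libraries, so the counts are no independent evidence. Over all tested genes, those fits called 10.9% to 42.1% between 30 and 60 minutes, in either direction. Between 0 and 60 minutes they called 30.8% to 68.3%. Between 0 and 30 minutes, where the main count was 0, total counts alone gave 12 calls, upper-quartile factors 49 and only the 4 libraries compared 14. Of all tested genes, the main fit called 36.4% there, and these fits called 37.6%, 48.7% and 48.2% in the same order. With the replicate number as a block, 1 of the 149 was called at 30 minutes. Deviations of libraries with the same number correlated with r of -0.0635 (0 and 30 minutes), 0.0162 (0 and 60) and 0.266 (30 and 60), and no label ties a replicate number to a shared culture. The block changed no other count of members. The median ratio between 60 and 30 minutes was 0.329, 0.263 with total counts alone, 0.306 with upper-quartile factors, and 0.311 to 0.339 with 1 library left out. The median ratio between 30 and 0 minutes was 0.948, 0.858 with total counts alone, 0.798 with upper-quartile factors, and 0.918 to 0.965 with 1 library left out. Of the 144 to 169 genes chosen on 5 libraries, 107 to 117 met the limit on the ratio formed with the left-out library. All limits were met by 96 to 113. The log2 fold changes of the 31 named genes kept their direction and call in all 496 alternative values. The cause of these shifts was not tested. Depth limits the genes of lowest level most, since a gene could rest on 21 reads over both 60 minute libraries.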
